A study of Mus musculus with 8 samples.

Results

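Short interspersed elements (SINEs) of the mouse were followed in the small RNA of sperm, as the rows of the deposited transposon table whose element name begins with B1_, B1F, PB1, B2_, B3, B4, ID or RSINE. This rule took 28 names, each counted on the sense and on the antisense strand of its copies. That made 56 of the 2189 combinations of name and strand in the table (215185 of 783825 transposon rows, each 1 copy on 1 strand). Not every copy had a row on both strands, as B1_Mus1 had 3863 sense and 7596 antisense rows. RNA came from 8 sperm samples, 4 labelled control and 4 labelled ethanol. The study's title and design text place them a month after alcohol was stopped, and the sources used here do not give strain, age, dose or route. The labels do not say whether each sample is a separate animal, and p-values here therefore measure only the spread between these samples, which may be technical. The sample codes of ethanol libraries 1 and 2 begin with POM and those of ethanol libraries 3 and 4 with POEM, while all control codes begin with POCM. A code therefore never spans both groups, and code and group cannot be told apart beyond the values given within each code.

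SINEs are short retrotransposons that are transcribed by RNA polymerase III and copied back into the genome by proteins of the LINE L1. B1 elements, and the older PB1 forms, descend from 7SL RNA, the RNA of the signal recognition particle, whereas B2 and B3 derive from a tRNA. ID elements are kin to the tRNA-like BC1 RNA, and B4, with the related RSINE1, joins an ID-like part to a B1-like part. In the male germ line, PIWI proteins carry piRNAs, small RNAs cut from transcripts of piRNA clusters and of transposons, and silence transposons with them. A read on the antisense strand of a copy can pair with a transcript of that element. A read on the sense strand can be part of such a transcript, but its strand alone does not show which transcript it came from.

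The SINE copies carry numbers but no coordinates in the table, so their own sequences are not shown. The cellular RNA to which ID elements are kin shows the parental type of sequence instead, from the GENCODE vM21 transcripts of the build GRCm38 (Bc1, chr7:144914470-144914637, plus strand, biotype lincRNA). All 168 bases of Bc1 are given 5′ to 3′, and capitals mark the only match to GTTCNNNNC, core letters of the B box, the second part of the promoter that RNA polymerase III reads inside such genes.
Bc1: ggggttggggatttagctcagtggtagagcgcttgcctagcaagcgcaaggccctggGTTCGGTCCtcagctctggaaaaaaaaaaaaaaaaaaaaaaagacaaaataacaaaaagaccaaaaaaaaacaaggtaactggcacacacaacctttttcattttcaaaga
The match begins at base 58 of Bc1, counted from the 5′ end, and the reverse complement of the motif was not found in it. Of 135207 annotated transcripts of at least 168 bases, 13.0% held the motif on their own strand in the first 168 bases and 25.3% on either strand.

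The whole table held 3481865 to 6975180 counts a library, and SINE members took 0.777 to 1.35% of them (11.2 to 12.5% of the transposon counts). 1 library, ethanol 2, stood apart. It had the lowest total, the largest TMM factor (1.45), and the highest summed level of the epididymal epithelium marker list, 13649 CPM against 445 to 881 CPM in control libraries and at least 994 CPM in the other ethanol libraries. CPM are counts brought to a common library total and scaled by TMM factors, which set most features of the libraries to a common level. Of the 15 epithelial markers 10 could be tested and 8 passed edgeR's test at an adjusted p of 0.05, all higher in ethanol, where 11.8% of all features and 23.8% of mRNA exon features were. The blood and immune list (10 genes, 5 tested) moved both ways. Cd52, a gene of immune cells that the epididymal epithelium also expresses, was higher (67.8 ± 16.7 CPM in control and 863 ± 1177 CPM in ethanol libraries) and made up nearly all of the list's sum of 175 to 2630 CPM in ethanol libraries (82.0 to 118 CPM in control). The 4 tested globin genes had log2 fold changes from -2.02 to -1.55, and 2 of them, Hba-a1 and Hba-a2, passed as lower (1.75% of all features were). Every listed gene had a count in at least 1 library. All 12 sperm markers could be tested and none passed the test (575 to 731 CPM in control, 233 to 620 CPM in ethanol, lowest in ethanol 2). Their log2 fold changes were all negative, from -0.93 (Smcp) to -0.24 (Ldhc), with a median of -0.53. Epididymal markers thus moved with the group and with ethanol 2, and their part in the SINE values below was not tested. In such bulk RNA, fewer cells of a type and less RNA per cell cannot be told apart.

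Counts on SINEs were concentrated on few copies. The members held 465043 counts over the 8 libraries, 48.8% sense and 51.2% antisense. Of the 215185 rows 48584 were 0 in every library, 165114 held 1 to 10 counts, and 268 held over 100 counts and together 40.6% of all member counts. B3 names contributed the largest family share with 24.1%, B1 names followed with 22.8%, B4 with 18.5%, ID with 13.4%, RSINE1 with 9.27%, PB1 with 6.82% and B2 with 5.11%. The share here called ID includes ID_B1, which the table itself files under the B4 family.

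The subfamilies differed in how many of their rows carried a count. Copy numbers ran past the number of rows (ID had 255 sense and 265 antisense rows, and 1 copy was ID_copy5942). Shares of rows therefore need not be shares of all copies. Of the B2_Mm1a sense rows 36.1% had at least 1 count in the 8 libraries together, and of the B1_Mm sense rows 45.6%, of B1_Mus1 48.4% and of B2_Mm2 50.8%. These names mark young mouse elements whose copies are nearly alike. Names of older elements had counts on most of their rows: 86.1% for B1F, 81.96% for B3, 92.02% for B4A, 90.9% for PB1 and 92.2% for ID, all sense. Antisense rows gave a like order, from 37.1% for B2_Mm1a to 93.8% for ID2. The sources used here do not say how reads that match several copies were placed or which copies were given rows. The part of either in these shares was not tested.

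Single copies held much of the level of several names. B1_Mus1_copy58276 held 64.4% of all B1_Mus1 sense counts, ID_copy5942 held 82.7% of the ID antisense counts, and B1F_copy22474 held 48.3% of the B1F sense counts. At the other end, the highest B2_Mm1a antisense copy held 2.39% and the highest B1F2 antisense copy 2.17%. The sense copies with most counts were B1_Mus1_copy58276 (12751), B1F_copy22474 (3741), B4_copy39482 (3044) and B2_Mm2_copy63067 (2577), and antisense ones with many counts were B3_copy11989 (6595), B4A_copy79398 (4693) and B4A_copy81769 (3222). B4A_copy81800 and B4A_copy81801 carried the same count in each of the 8 libraries.

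**Figure D1:**
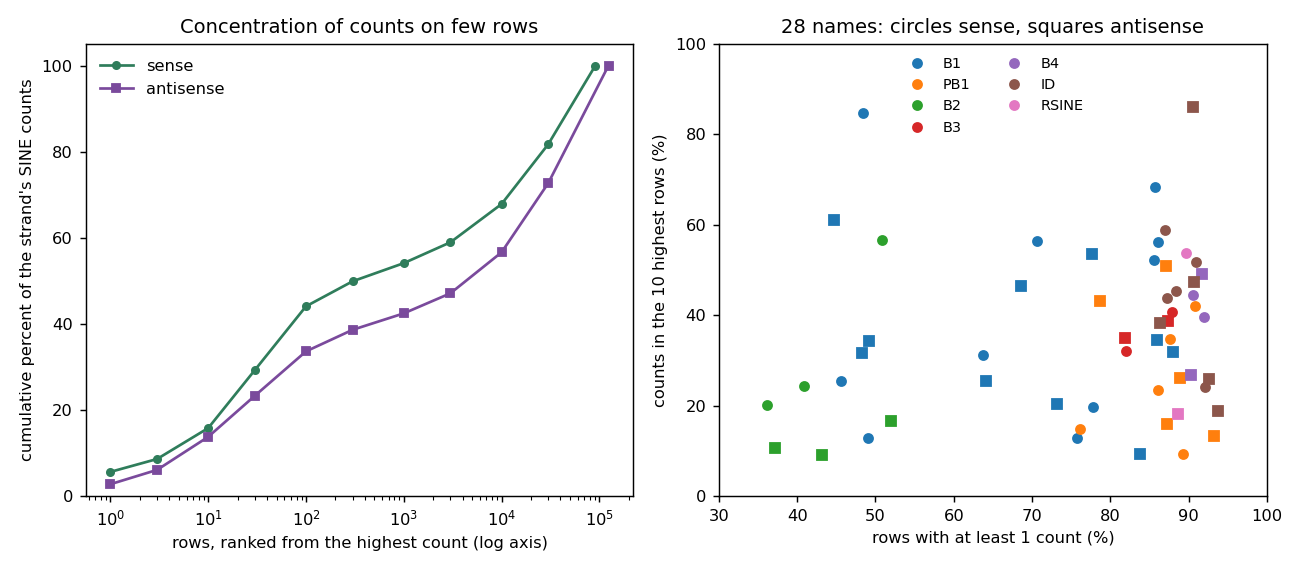
Left, cumulative percent of the sense and antisense SINE counts (8 libraries together) over rows ranked from the highest count (log axis): the 100 highest rows reached 44.1% of the sense and 33.6% of the antisense counts. Right, for each of the 28 names on each strand, percent of rows with at least 1 count (horizontal axis, from 30%) and percent of counts in the 10 highest rows: B2 and several B1 names lie at the left, and B1_Mus1 sense and ID antisense at the top.

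Most abundant copies were read from 1 strand. Of the 268 copies with over 100 counts on both strands together, 262 (97.8%) had more than 90% of their counts on a single strand, 132 of them on the sense and 130 on the antisense strand. The same held for 207 of 214 L1 copies (96.7%) and for 1080 of 1135 copies of the other transposons (95.2%). Among copies with over 20 counts the share was 97.5% for SINEs (698 of 716), 89.2% for L1 and 89.3% for the other transposons. These shares are descriptions and were not tested. Not every copy had a row on both strands, and the part of missing rows in these shares was not tested either.

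The comparison of ethanol with control asks whether SINE-derived small RNA in sperm differed after alcohol exposure and cessation. Summed over all names, SINE levels overlapped between the groups on both strands. Sense SINE levels were 7707, 5832, 6228 and 7432 CPM in control libraries 1 to 4 and 5591, 2786, 7932 and 4260.0 CPM in ethanol libraries 1 to 4. Antisense levels were 7977, 5993, 6366 and 7871 CPM in control libraries 1 to 4 and 6391, 2781, 8132 and 4441 CPM in ethanol libraries 1 to 4. Ethanol 2 was the lowest and ethanol 3 the highest of the 8 libraries on both strands, so the ethanol group held both ends of the range. The sense mean was 6799.9 ± 910.4 CPM in control and 5142 ± 2184 CPM in ethanol libraries (SD, n = 4 each), a log2 difference of -0.50 ± 0.33 (SE; two-sided exact permutation test, p = 0.200). The antisense mean was 7052 ± 1019.5 CPM in control and 5436 ± 2326 CPM in ethanol libraries (log2 difference -0.48 ± 0.35, exact permutation p = 0.343). Without ethanol 2 the log2 differences were -0.24 and -0.19. Scaled to the total of all transposon counts they were -0.03 and -0.01.

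By family, none of the 24 comparisons (sense level, antisense level and ratio for all names and 7 families) passed the test after Benjamini-Hochberg adjustment over the 24, where the smallest adjusted p was 0.171. With 4 libraries against 4 the exact permutation test cannot give a p below 0.0286. Sense B1 levels were 1789.7, 1393, 1523 and 1883 CPM in control libraries 1 to 4 and 1110.3, 545, 1666 and 944 CPM in ethanol libraries 1 to 4. Antisense B1 levels were 1719, 1370.1, 1448 and 1866 CPM in control libraries 1 to 4 and 1455, 711, 1934 and 1045 CPM in ethanol libraries 1 to 4. The sense means were 1647 and 1066 CPM (exact permutation p = 0.0857, adjusted 0.294), and ethanol 3 was the only ethanol library within the control range on that strand. Of PB1, the proto-B1 elements, sense levels were 423, 389, 399.7 and 414 CPM in control libraries 1 to 4 and 327, 189, 410.3 and 288 CPM in ethanol libraries 1 to 4. Antisense PB1 levels were 595, 462, 507 and 577 CPM in control libraries 1 to 4 and 488, 246, 572 and 367 CPM in ethanol libraries 1 to 4. On both strands ethanol 3 lay within the control range, and ethanol 2 was the lowest.

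B2 elements, from a tRNA, were the least abundant family. Sense B2 levels were 383, 290.5, 354 and 464 CPM in control libraries 1 to 4 and 329.9, 163, 568 and 243 CPM in ethanol libraries 1 to 4. Antisense B2 levels were 408, 291, 308 and 343 CPM in control libraries 1 to 4 and 248, 125, 283 and 202 CPM in ethanol libraries 1 to 4. All 4 ethanol libraries lay below all 4 control libraries on the antisense strand (338 ± 51.9 CPM in control and 214 ± 68.4 CPM in ethanol libraries; exact permutation p = 0.0286, adjusted 0.171), while the sense groups overlapped. Sense B3 levels were 1870.1, 1227, 1417 and 1643 CPM in control libraries 1 to 4 and 1239, 536, 1844 and 904 CPM in ethanol libraries 1 to 4. Antisense B3 levels were 2057, 1529, 1619.9 and 2059 CPM in control libraries 1 to 4 and 1647, 665, 2199 and 1127 CPM in ethanol libraries 1 to 4. B3 was the most abundant family on the antisense strand, and both groups overlapped on both strands.

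Sense B4 levels were 1304, 1004, 1036 and 1236 CPM in control libraries 1 to 4 and 1062, 741, 1303 and 822 CPM in ethanol libraries 1 to 4. Antisense B4 levels were 1546, 1132, 1205 and 1482 CPM in control libraries 1 to 4 and 1275, 469, 1568 and 779 CPM in ethanol libraries 1 to 4. The composite B4 elements gave overlapping groups, and the sense level of ethanol 2 was less far below the others than for the other families. Sense ID levels were 1129.7, 982, 868 and 1038 CPM in control libraries 1 to 4 and 821, 342, 1154 and 564 CPM in ethanol libraries 1 to 4. Antisense ID levels were 978, 713, 780.0 and 956 CPM in control libraries 1 to 4 and 791, 344, 1085 and 580.0 CPM in ethanol libraries 1 to 4. For this ID sum, most of it from the composite ID_B1, ethanol 3 was the highest library on both strands and ethanol 2 the lowest. Of the other names in it, ID, ID4 and ID4_ sense were highest in a control library and ID2 sense in ethanol 3. Sense RSINE1 levels were 808, 548, 631 and 754 CPM in control libraries 1 to 4 and 702, 270.2, 987 and 495 CPM in ethanol libraries 1 to 4. Antisense RSINE1 levels were 674, 496, 498 and 586 CPM in control libraries 1 to 4 and 486, 220.0, 492 and 341 CPM in ethanol libraries 1 to 4. Every ethanol library was below every control library on the antisense strand (564 ± 84.5 CPM in control and 385 ± 130.1 CPM in ethanol libraries; exact permutation p = 0.0286, adjusted 0.171), by a narrow gap, and the sense groups overlapped.

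**Figure D2:**
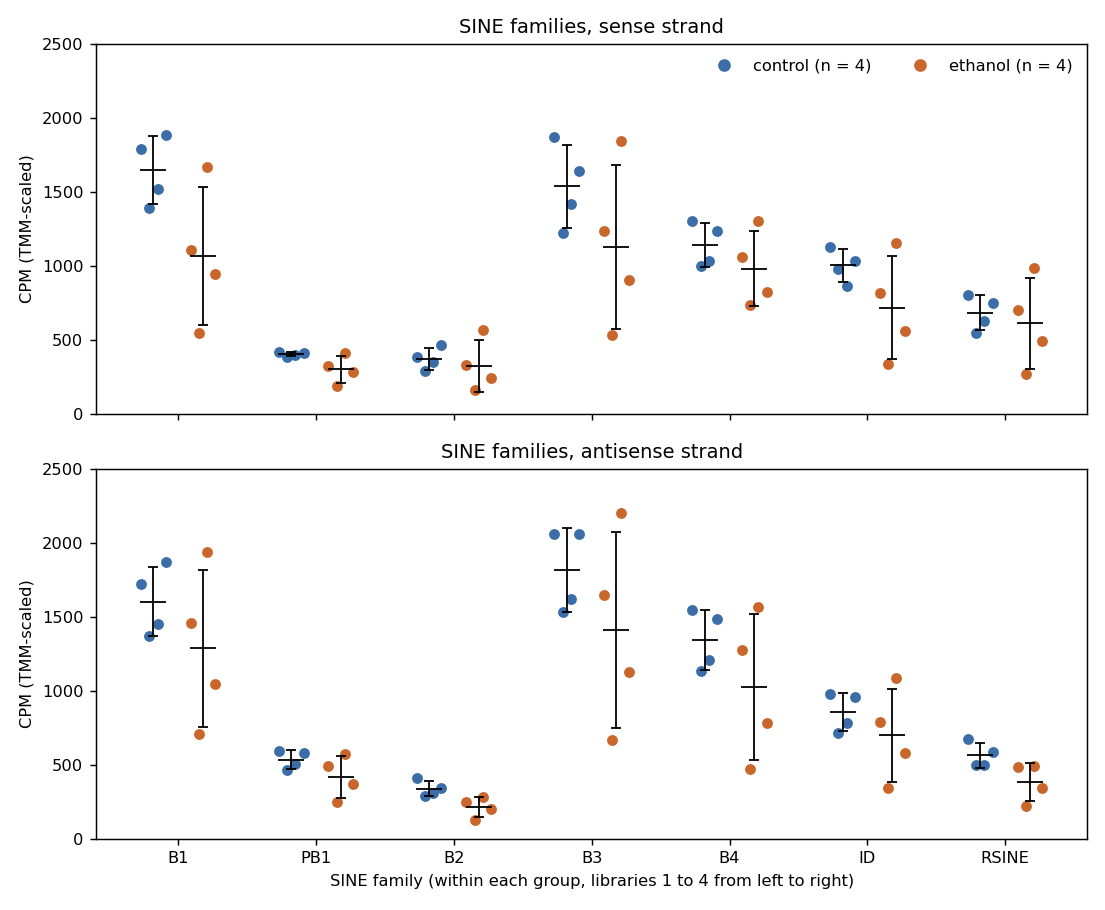
CPM of the 7 SINE families on the sense (top) and antisense strand (bottom), 1 point a library (blue control, orange ethanol, libraries 1 to 4 from left to right), with mean ± SD in black and n = 4 a group. Ethanol 2 is the lowest ethanol library throughout, and the groups separate only for antisense B2 and antisense RSINE1.

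Name by name, all 28 SINE names could be tested on both strands within the edgeR quasi-likelihood fit over 13513 features, in which 1837 (13.6%) passed an adjusted p of 0.05, 1600 of them higher and 237 lower in ethanol. These counts depended on single libraries and on the tool: without any 1 control 1 to 3 features were higher and 2 to 7 lower, without ethanol 3 2727 and 839, without ethanol 4 955 and 87, and with limma-voom 1 and 7. None of the 56 SINE features passed, and 3 had an unadjusted p under 0.05, all lower in ethanol, against 33.0% of all features in either direction and 8.71% lower. DESeq2's Wald test called 4 SINE features, all lower, and limma-voom none. The fitted log2 fold changes of all 56 were negative (median -0.35, from -1.12 to -0.03), against a median of -0.01 over all features, -0.53 over the other transposons, -0.62 over L1, -0.59 over IAP and -0.19 over MIR names. The -0.01 mixes classes that moved apart: the median was 0.88 over mRNA exons, -0.38 over introns, -1.52 over miRNAs, -0.20 over tRNAs and -0.08 over piRNA clusters. The SINE median was thus near that of introns. With plain library totals the median of all features moved to 0.24, that of the SINE features to -0.15, and 50 of the 56 were negative. No SINE feature had every ethanol library above every control library (14.4% of all features did), and 5 had every ethanol library below every control library (6.93% of all features did): B1_Mus1 sense, PB1D11 sense, B2_Mm1a antisense, ID2 antisense and RSINE1 antisense.

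The 3 names with the smallest p came from young B1 and B2 subfamilies. B2_Mm1a antisense levels were 28.4, 29.1, 26.4 and 33.5 CPM in control libraries 1 to 4 and 16.4, 11.5, 19.2 and 17.9 CPM in ethanol libraries 1 to 4, a log2 fold change of -0.85 ± 0.33 (SE) with an edgeR adjusted p of 0.0935. The controls lay within a narrow band and all ethanol libraries below it, while on the sense strand the same name gave -0.13 ± 0.39 with overlapping groups. B1_Mus1 sense levels were 876, 599.6, 678 and 852 CPM in control libraries 1 to 4 and 346, 159, 574 and 305 CPM in ethanol libraries 1 to 4 (fitted log2 change -1.12 ± 0.46, edgeR adjusted p = 0.109). The highest ethanol library, ethanol 3, lay just below the lowest control. B1_Mm sense levels were 40.7, 35.1, 41.5 and 54.9 CPM in control libraries 1 to 4 and 22.6, 14.2, 36.3 and 24.9 CPM in ethanol libraries 1 to 4 (fitted log2 change -0.81 ± 0.38, edgeR adjusted p = 0.148), and ethanol 3 overlapped the controls. Without ethanol 3, 2 of the 56 SINE features passed the test, both lower, and among the POM ethanol libraries alone 1 did. No SINE feature had a positive fold change.

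**Figure D3:**
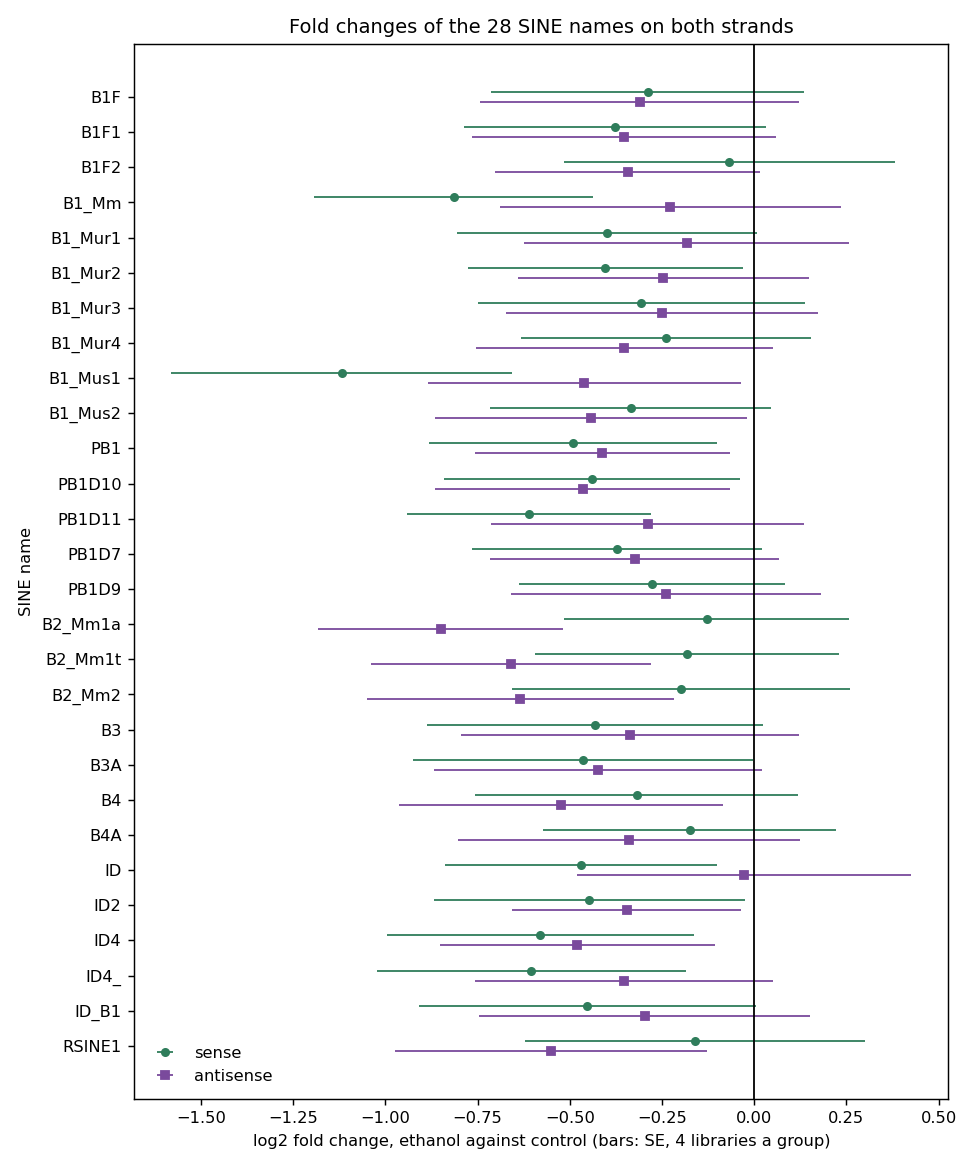
Log2 fold change of ethanol against control (points) with its SE (bars) for the 28 SINE names, sense as circles and antisense as squares, n = 4 a group. All 56 points lie left of 0, from -1.12 (B1_Mus1 sense) to -0.03 (ID antisense).

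The 2 most abundant names of each family and strand followed, and none of them passed the test. Among B1 names, B1_Mus1 antisense levels were 295, 225, 241 and 314 CPM in control libraries 1 to 4 and 226, 107, 282 and 167 CPM in ethanol libraries 1 to 4. B1_Mur1 antisense levels were 286, 226, 238 and 333 CPM in control libraries 1 to 4 and 251, 125, 387 and 192 CPM in ethanol libraries 1 to 4. B1F sense levels were 224, 193, 220.2 and 250.2 CPM in control libraries 1 to 4 and 206, 97.9, 274 and 149 CPM in ethanol libraries 1 to 4. B1_Mus1 antisense had a fitted log2 change of -0.46 ± 0.42, against -1.12 ± 0.46 on its sense strand, and for B1_Mur1 and B1F ethanol 3 was above every control. Among the proto-B1 names, PB1D10 sense levels were 192, 175, 168 and 183 CPM in control libraries 1 to 4 and 149, 78.6, 176 and 126 CPM in ethanol libraries 1 to 4. PB1D10 antisense levels were 223, 186, 202 and 209 CPM in control libraries 1 to 4 and 190.2, 98.5, 183 and 122 CPM in ethanol libraries 1 to 4. PB1D10 gave fitted log2 changes of -0.44 ± 0.40 and -0.47 ± 0.40, with ethanol 2, 3 and 4 below every control on the antisense strand. PB1D7 sense levels were 87.3, 77.1, 67.6 and 84.9 CPM in control libraries 1 to 4 and 65.4, 34.3, 87.5 and 57.5 CPM in ethanol libraries 1 to 4. PB1D9 antisense levels were 157, 119, 116 and 143 CPM in control libraries 1 to 4 and 126, 62.7, 173 and 91.8 CPM in ethanol libraries 1 to 4. For both of these ethanol 3 was the highest of the 8 libraries and ethanol 2 the lowest.

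Names of the tRNA-derived B2 family had fitted values nearer 0 on the sense than on the antisense strand. B2_Mm2 sense levels were 321, 249, 301 and 414 CPM in control libraries 1 to 4 and 282, 141, 489.9 and 207 CPM in ethanol libraries 1 to 4. B2_Mm2 antisense levels were 308, 221, 231 and 259.7 CPM in control libraries 1 to 4 and 188, 92.7, 225 and 151 CPM in ethanol libraries 1 to 4. B2_Mm2, the most abundant B2 name, gave fitted log2 changes of -0.20 ± 0.46 sense and -0.63 ± 0.42 antisense, and on the sense strand ethanol 3 was the highest library. B2_Mm1t sense levels were 37.9, 26.3, 35.2 and 33.7 CPM in control libraries 1 to 4 and 30.7, 13.2, 50.3 and 23.0 CPM in ethanol libraries 1 to 4. B2_Mm1t antisense levels were 71.9, 40.4, 51.03 and 50.3 CPM in control libraries 1 to 4 and 43.1, 20.4, 39.1 and 32.6 CPM in ethanol libraries 1 to 4. B2_Mm1t likewise gave -0.18 ± 0.41 and -0.66 ± 0.38. The difference between strands was not tested for single names. B3 sense levels were 1079, 714, 833 and 974 CPM in control libraries 1 to 4 and 737, 322, 1074 and 537 CPM in ethanol libraries 1 to 4. B3 antisense levels were 1328, 1003, 1104 and 1401 CPM in control libraries 1 to 4 and 1103, 443, 1528 and 753 CPM in ethanol libraries 1 to 4. B3 gave log2 changes of -0.43 ± 0.46 and -0.34 ± 0.46, and ethanol 1 lay within the control range on both strands. B3A sense levels were 792, 512, 584 and 669 CPM in control libraries 1 to 4 and 502, 214, 769.7 and 367 CPM in ethanol libraries 1 to 4. B3A antisense levels were 729.6, 525, 516 and 658 CPM in control libraries 1 to 4 and 544, 222, 671 and 375 CPM in ethanol libraries 1 to 4. B3A, its relative, gave -0.46 ± 0.46 and -0.42 ± 0.45.

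Among composite and ID names, B4A antisense levels were 1097, 784, 858 and 1074 CPM in control libraries 1 to 4 and 930.5, 340.1, 1188 and 552 CPM in ethanol libraries 1 to 4. B4A sense levels were 877, 676, 701 and 804 CPM in control libraries 1 to 4 and 718, 587, 839 and 564 CPM in ethanol libraries 1 to 4. On the sense strand ethanol 4 and not ethanol 2 was the lowest library, which set B4A sense apart from the other names given here. B4 sense levels were 427, 328, 334 and 432 CPM in control libraries 1 to 4 and 344, 153, 464 and 258 CPM in ethanol libraries 1 to 4. B4 antisense levels were 448, 349, 347 and 408 CPM in control libraries 1 to 4 and 345, 129, 379.5 and 226 CPM in ethanol libraries 1 to 4. The B4 name gave fitted log2 changes of -0.32 ± 0.44 and -0.52 ± 0.44. ID_B1 sense levels were 848, 712, 662 and 849.6 CPM in control libraries 1 to 4 and 637, 264, 923 and 421 CPM in ethanol libraries 1 to 4. ID_B1 antisense levels were 763, 545, 605 and 738 CPM in control libraries 1 to 4 and 625, 262, 832 and 438 CPM in ethanol libraries 1 to 4. ID_B1 had ethanol 3 above every control on both strands. ID4_ sense levels were 131, 115, 86.9 and 74.8 CPM in control libraries 1 to 4 and 82.6, 35.4, 91.9 and 57.8 CPM in ethanol libraries 1 to 4. ID4_ antisense levels were 83.97, 77.9, 77.1 and 92.7 CPM in control libraries 1 to 4 and 63.9, 34.5, 101 and 60.2 CPM in ethanol libraries 1 to 4. ID4_ gave log2 changes of -0.60 ± 0.42 and -0.35 ± 0.40, again lowest in ethanol 2. RSINE1, the only name of its family, gave -0.16 ± 0.46 sense and -0.55 ± 0.42 antisense, neither past the test.

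Copy by copy, 5 single SINE copies passed the test, all lower in ethanol. In a fit over 13909 features with each transposon copy on its own, 1102 features (7.92%) passed the edgeR test at an adjusted p of 0.05, 960 higher (6.90%) and 142 lower (1.02%) in ethanol. Over all features 1 to 3 were higher and 4 to 14 lower without any 1 control, 1 and 4 without ethanol 4, 378 and 251 without ethanol 2, 2809 and 590 without ethanol 3, and 1 and 5 with DESeq2 size factors, so the share beside the SINE copies depended on these choices. Of the 166601 SINE rows with a count 285 passed the count filter, which keeps a row that is high in either group, and 5 of these were lower in ethanol and 0 higher. At an unadjusted p under 0.05 edgeR gave 1 higher and 11 lower (30.3% of all features in either direction, 22.8% higher and 7.49% lower), and DESeq2's Wald test called 1 copy higher and 11 lower, limma-voom 1 lower.

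The largest change was that of ID_B1_copy20613, a copy of the ID and B1 composite, on the sense strand. It had 74, 292, 96 and 61 counts in control libraries 1 to 4 and 0, 0, 2 and 1 counts in ethanol libraries 1 to 4. Control 2 was far above the other controls, and every ethanol library was near 0. The CPM were 33.7 ± 28.7 CPM in control and 0.133 ± 0.172 CPM in ethanol libraries, and the pooled counts, 523 against 3 and scaled to the summed library sizes, differed 258-fold, with a 95% interval of 87.9 to 1257 that covers counting error only. The edgeR log2 fold change was -7.76 ± 0.85 with an adjusted p of 0.00242. The copy stayed past the threshold without each of the 8 libraries in turn (edgeR adjusted p at most 0.0345) and within either ethanol code. It met the count filter only through its control counts, and these fits reuse the same libraries, so they are not independent of each other.

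ID_B1_copy32809, also sense, gave the same kind of profile. It had 56, 144, 35 and 15 counts in control libraries 1 to 4 and 1, 0, 2 and 0 counts in ethanol libraries 1 to 4, again highest in control 2 and at 2 counts or fewer in every ethanol library. Its mean level was 16.1 ± 15.01 CPM in control and 0.126 ± 0.171 CPM in ethanol libraries. Its pooled counts, 250 against 3, differed 123-fold on the same scale (41.8 to 603, counting error only). The edgeR log2 fold change was -6.71 ± 0.89 with an adjusted p of 0.00970. It stayed past the threshold without each library in turn, but not with limma-voom (adjusted p = 0.0779) or against the POEM ethanol libraries alone (edgeR adjusted p = 0.0978). This copy, too, met the count filter only through its control counts. With limits set after their values were seen, at least 15 counts in every control and at most 2 in every ethanol library, these 2 copies were the only such features among the 13909. Introns and exons were summed per gene in that fit, so a like loss in a single intron or exon need not show there. The 2 copies made up 4.37% and 2.09% of the ID_B1 sense counts in control, and the log2 difference of the name was -0.59 with them and -0.49 without.

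The other 3 copies past the threshold were lower by less and sat close to it. PB1D10_copy10862 sense had 28, 20, 37 and 48 counts in control libraries 1 to 4 and 7, 1, 11 and 10 counts in ethanol libraries 1 to 4 (log2 fold change -2.76 ± 0.51, edgeR adjusted p = 0.0455). PB1D10_copy50489 sense had 14, 15, 10 and 13 counts in control libraries 1 to 4 and 7, 1, 8 and 8 counts in ethanol libraries 1 to 4 (-1.68 ± 0.46, edgeR adjusted p = 0.0462). B1_Mus1_copy86305 antisense had 31, 24, 20 and 15 counts in control libraries 1 to 4 and 13, 6, 0 and 11 counts in ethanol libraries 1 to 4 (-2.16 ± 0.58, edgeR adjusted p = 0.0461). In CPM all 3 separated the groups, with every ethanol library below every control library, as did 10 of the 285 tested copies (6.36% of all 13909 features; 0 of 285 lay above, against 13.5%). All 3 lost the call without any one of the 4 control libraries, where the number of SINE copies past the threshold went from 5 to 2, and without ethanol 4, where it was also 2. It was 3 without ethanol 1, all lower, 7 without ethanol 2 (1 higher and 6 lower) and 21 without ethanol 3 (1 higher and 20 lower).

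B1_Mus1_copy58276, the most abundant SINE copy in the table, just missed the threshold. B1_Mus1_copy58276 sense counts were 2594, 1794, 1925 and 2148 in control libraries 1 to 4 and 1154, 377, 1695 and 1064 in ethanol libraries 1 to 4, which made 72.3% of the B1_Mus1 sense counts in control and 52.9% in ethanol libraries. In CPM it was 658, 470.2, 468 and 574 in control libraries 1 to 4 and 166, 78.5, 306 and 180.4 in ethanol libraries 1 to 4. All ethanol libraries lay below all controls, ethanol 3 the least, with a log2 fold change of -1.57 ± 0.48 and an edgeR adjusted p of 0.0567. It passed with library totals (0.0481), with DESeq2's Wald test (0.00267), without ethanol 3 (0.00888) and against the POM ethanol libraries alone (0.0135), but not in every setting. Without 1 library at a time its edgeR adjusted p ran from 0.00888 to 0.171. Over 9 other settings, which included other tests, its adjusted p ran from 0.00267 to 0.350. Without this copy the B1_Mus1 sense log2 difference was -0.46 in place of -1.24, and the exact permutation p was 0.314 in place of 0.0286.

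In the other direction, the copy with the largest positive fold change was RSINE1_copy8330 sense, named after its values were seen. It had 197, 64, 51 and 58 counts in control libraries 1 to 4 and 812, 141, 480 and 426 counts in ethanol libraries 1 to 4. In CPM it was 49.99, 16.8, 12.4 and 15.5 in control libraries 1 to 4 and 116, 29.3, 86.7 and 72.2 in ethanol libraries 1 to 4, so that only ethanol 2 lay within the control range. The log2 fold change was 1.69 ± 0.56 with an edgeR adjusted p of 0.0684. The copy passed without ethanol 2 (0.0458), without ethanol 3 (0.0452), with library totals (0.0493) and with DESeq2's Wald test (0.0190), but not in every setting. Without 1 library at a time its edgeR adjusted p ran from 0.0452 to 0.209. Over 9 other settings, which included other tests, its adjusted p ran from 0.0156 to 0.133. The median log2 fold change over the 285 tested copies was -0.06, and 181 were negative. With library totals it was 0.11 and 93 were negative, so the direction of the typical copy depended on the scaling.

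**Figure D4:**
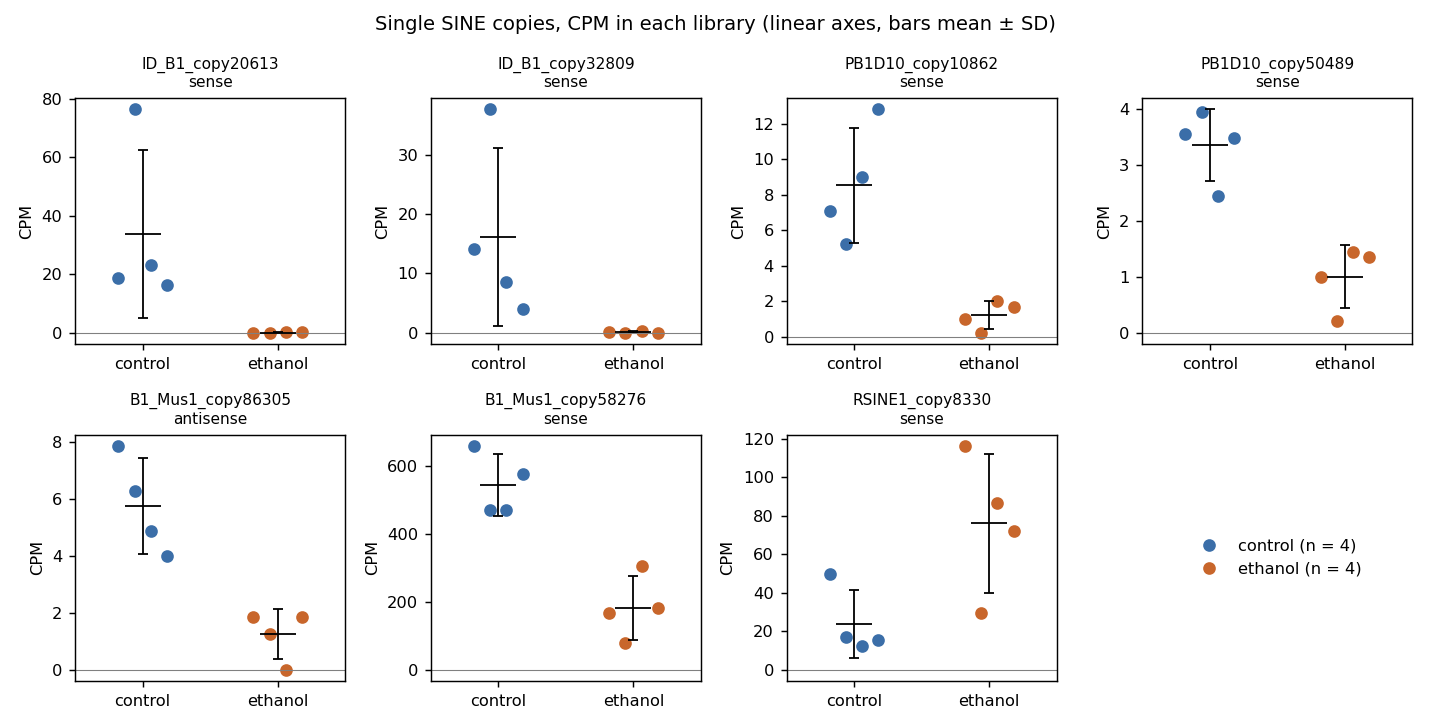
CPM of 7 single SINE copies in each control (blue) and ethanol library (orange), libraries 1 to 4 from left to right, with mean ± SD in black and n = 4 a group, on linear axes that differ between panels. Both ID_B1 copies are near 0 in all 4 ethanol libraries and highest in control 2, and RSINE1_copy8330 is the only one of the 7 with a higher ethanol mean.

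The few abundant rows and the many sparse ones differed in how they varied over libraries. The 268 rows with over 100 counts summed to 5617, 3599, 4652 and 6774 CPM in control libraries 1 to 4 and 4662, 2040.4, 8810.4 and 3155 CPM in ethanol libraries 1 to 4. Ethanol 3 was highest, ethanol 2 lowest and the groups overlapped (5161 ± 1355 CPM in control and 4667 ± 2964 CPM in ethanol libraries; exact permutation p = 0.571). The rows with up to 100 counts summed to 10067, 8226, 7941 and 8529 CPM in control libraries 1 to 4 and 7320.0, 3527, 7254 and 5546 CPM in ethanol libraries 1 to 4. Here all 4 ethanol libraries lay below all 4 controls (8691 ± 948 CPM in control and 5912 ± 1789.6 CPM in ethanol libraries; log2 difference -0.61, exact permutation p = 0.0286, adjusted over 8 measures 0.0762). This limit of 100 counts was chosen after the data were seen. It was applied to raw counts summed over these same 8 libraries, where ethanol 1, 3 and 4 had larger totals than every control. A row high in ethanol could thus fall outside the sparse rows, and the part of this in the group difference was not tested.

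The abundant SINE rows ran in step with piRNA clusters. Per 100 counts in piRNA clusters, they had 3.10, 3.34, 3.15 and 3.03 counts in control libraries 1 to 4 and 2.76, 3.56, 2.97 and 3.30 counts in ethanol libraries 1 to 4, 3.16 ± 0.134 and 3.15 ± 0.353 (exact permutation p = 0.943), so the ratio differed little although the cluster level ranged from 57292 to 296825 CPM. Over the 8 libraries the log2 levels gave Pearson's r = 0.995 (permutation p = 2.48e-05, the smallest 8 libraries can give) and Spearman's rho = 1 (permutation p = 4.96e-05), with adjusted p = 0.000198 for both, and r = 0.984 without ethanol 2 and 3, the libraries farthest from the median. The sparse rows had r = 0.748 with piRNA clusters (permutation p = 0.0331, adjusted 0.0378; rho = 0.524, p = 0.197; r = 0.664 without the same libraries) and r = 0.963 with introns (permutation p = 0.00129, adjusted 0.00317; rho = 0.833, p = 0.0154). The intron relation had r = 0.660 without ethanol 2 and 4, so it rested in part on these. The abundant rows had r = 0.882 with introns (permutation p = 0.00159, adjusted 0.00317; rho = 0.833, p = 0.0154; r = 0.651 without the 2 farthest libraries), and these 4 relations were all that were computed. Each pair of levels shares its library and scaling factor, 4 libraries a group are too few for a value within groups, and the sources used here do not say whether a read in a SINE copy inside a piRNA cluster was counted in both classes.

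Relative to introns, the sparse SINE rows separated the groups. Per 100 intron counts they had 10.3, 9.50, 9.13 and 8.95 counts in control libraries 1 to 4 and 8.73, 6.40, 7.81 and 8.30 counts in ethanol libraries 1 to 4. The group means were 9.47 ± 0.607 and 7.81 ± 1.01, with no overlap and ethanol 2 farthest from the controls (exact permutation p = 0.0286, adjusted 0.0762). The sparse rows were chosen by their counts in these same libraries, so the p-value is not independent of that choice.

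**Figure D5:**
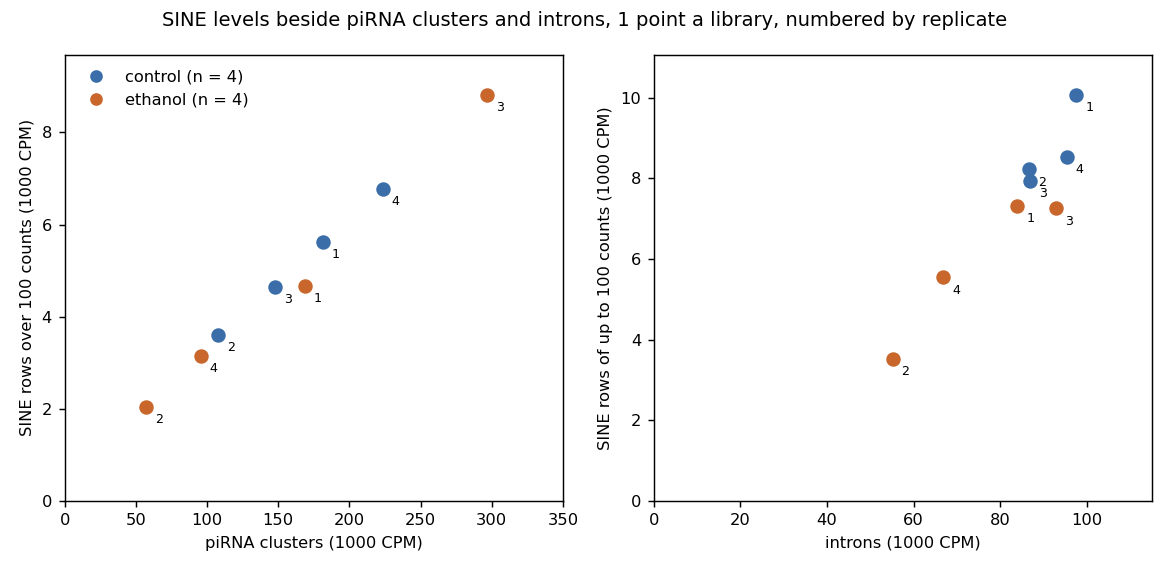
Left, summed CPM of the 268 SINE rows with over 100 counts against that of piRNA clusters; right, summed CPM of the SINE rows with up to 100 counts against that of introns; 1 point a library, numbered by replicate (blue control, orange ethanol), on linear axes from 0. The left points lie close to a line from ethanol 2 to ethanol 3, and on the right all ethanol points are below all control points.

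The balance of the strands was close to even. The antisense to sense ratio of the summed SINE counts was 1.03, 1.03, 1.02 and 1.06 in control libraries 1 to 4 and 1.14, 0.998, 1.03 and 1.04 in ethanol libraries 1 to 4. These ranges overlapped (1.04 ± 0.0163 in control and 1.05 ± 0.0633 in ethanol libraries; exact permutation p = 0.800). The table itself held 124103 antisense and 91082 sense rows, a ratio of 1.36. By family, the B1 ratio was 0.960, 0.984, 0.951 and 0.991 in control libraries 1 to 4 and 1.31, 1.30, 1.16 and 1.11 in ethanol libraries 1 to 4, so that every ethanol library was above every control (0.971 ± 0.0191 in control and 1.22 ± 0.103 in ethanol libraries; exact permutation p = 0.0286, adjusted 0.171). Without the rows of over 100 counts, B1_Mus1_copy58276 among them, the log2 difference of the B1 ratio was -0.0043 in place of 0.33. The ID ratio was 0.866, 0.727, 0.899 and 0.921 in control libraries 1 to 4 and 0.963, 1.01, 0.940 and 1.03 in ethanol libraries 1 to 4, again with every ethanol library above every control (exact permutation p = 0.0286, adjusted 0.171). With ID_B1 counted under B4 the log2 difference of the ID ratio was 0.28 in place of 0.21, and its exact permutation p was 0.229.

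The other families had overlapping ratios: PB1 from 1.19 to 1.49, B2 from 0.498 to 1.07, B3 from 1.10 to 1.33, B4 from 0.634 to 1.20 and RSINE1 from 0.498 to 0.905. The lowest B4 ratio, in ethanol 2, stood apart from 0.947 in the next library. By name, the ratio over all libraries ran from 0.396 for ID2 to 5.29 for ID. Antisense counts exceeded sense counts in all 8 libraries for 10 names, among them B1_Mm (3.48), B1_Mur1 (3.01), B1_Mus2 (2.40) and PB1D11 (2.56), and sense counts exceeded antisense counts in all 8 for 7 names, among them B1_Mus1 (0.444), B1F2 (0.536) and ID4 (0.476). Without the highest copy on each strand the ID ratio was 0.990, the B1_Mus1 ratio 1.15 and the B1_Mm ratio 2.25, while the ID2 ratio was 0.446 and remained the lowest of the 28 names.

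Set against other transposons within each library, the SINE ratio was closer to 1 than that of IAP, an LTR retrotransposon, whose ratio ran from 1.03 to 3.68, and of MIR, an ancient SINE of mammals (1.32 to 1.48). The log2 SINE ratio minus the log2 IAP ratio averaged -1.21 ± 0.52 (SD) and was negative in 8 of 8 libraries (two-sided exact sign-flip permutation, adjusted over 4 parts, p = 0.0156). Against MIR it averaged -0.44 ± 0.08 and was negative in 8 of 8 (exact adjusted p = 0.0156). Against L1 it averaged 0.45 ± 0.33 and was positive in 7 of 8 (exact adjusted p = 0.0312), and against all other transposons 0.15 ± 0.28 (0.172). The L1 result missed the threshold (exact adjusted p = 0.0625, from 0.40 to 0.45) without any 1 control, without ethanol 2 or without ethanol 4. These differences rested on abundant copies: without the rows of over 100 counts the log2 SINE ratio exceeded that of IAP by 0.71 and that of MIR by 0.59, while the SINE ratio against L1 names gave -0.093 (exact adjusted p = 0.0156), each the opposite direction.

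The cellular kin of the SINEs were counted as structural RNAs in the same table. 7SL RNA, parent of B1, had 4546, 3865, 2812 and 3823 CPM in control libraries 1 to 4 and 2657, 8771, 3929 and 3632 CPM in ethanol libraries 1 to 4, highest in ethanol 2, with a fitted log2 change of 0.34 ± 0.47 (SE) at an edgeR adjusted p of 0.640. BC1, kin of ID, had 166, 122, 105 and 122 CPM in control libraries 1 to 4 and 190.0, 63.5, 209 and 130.4 CPM in ethanol libraries 1 to 4 (fitted log2 change 0.20 ± 0.44, edgeR adjusted p = 0.776). 4.5S RNA, a short B1-related RNA, had 2107, 2354, 3949 and 5400.2 CPM in control libraries 1 to 4 and 1253, 900.3, 2621 and 1760.2 CPM in ethanol libraries 1 to 4 (fitted log2 change -1.08 ± 0.49, edgeR adjusted p = 0.141). None passed the test, and in each the groups overlapped, although 3 ethanol libraries lay below every control library for 4.5S RNA. Ethanol 2 was thus the lowest library for SINE rows, BC1 and 4.5S RNA and the highest for 7SL RNA.

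Of 30 genes for RNA polymerase III, its factors and proteins that bind SINE-type RNA, 14 could be tested, 3 were higher and 0 lower in ethanol (11.8% of all tested features and 23.8% of mRNA exon features were higher), with a median log2 fold change of 1.03 against 0.88 over all tested mRNA exons. The 3 were Ssb, which encodes the La protein that binds the ends of polymerase III transcripts (2.27 ± 0.61, edgeR adjusted p = 0.0320), Polr1d, a subunit shared by RNA polymerases I and III (1.69 ± 0.45, edgeR adjusted p = 0.0318), and Polr3b, the second largest subunit of RNA polymerase III (1.75 ± 0.51, edgeR adjusted p = 0.0394). Their levels were low, 2.10 ± 0.928 CPM in control and 10.3 ± 10.01 CPM in ethanol libraries for Ssb. Srp9 and Srp14, which bind the Alu-like part of 7SL and B1 RNA, had 1.07 ± 0.50 (edgeR adjusted p = 0.150) and 0.72 ± 0.39 (0.210). The list's summed level was highest in ethanol 2, 271 CPM against 75.8 to 107 CPM in control libraries, as the epididymal list's was, and the part of either in the other was not tested.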

How the data were processed

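Small RNA libraries of 8 mouse sperm samples (4 control, 4 ethanol) were prepared with a Qiaseq kit from Trizol-extracted total RNA, per the labels' protocols. The deposited table holds the authors' read counts per feature, without normalization. The aligner, the genome build, the use of molecular identifiers and the placing of reads with several matches are not given in the sources used here.

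Counts were summed per element name and strand, and other classes per gene or RNA name. The edgeR 4.0.16 quasi-likelihood test (R 4.3.3) with TMM factors, a filterByExpr minimum count of 10 and Benjamini-Hochberg adjustment over all features (threshold 0.05) was run on names and, separately, on single copies. Levels and ratios were compared with two-sided exact permutation tests over 70 assignments, or sign flips over 256 patterns. Their log2 differences are between group means of log2 values. The labels give the replicate numbers no meaning, so no pairing was used. Replicates differed by more than sampling noise (chi-square per degree of freedom at least 4.19). DESeq2 1.42.0 and limma 3.58.1 were alternatives, as were other filters, scalings and left-out libraries.

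The members and gene lists were chosen with earlier results of these data known. Named were the 2 names of highest mean CPM in each family and strand, the names past the threshold or else the 3 of smallest p in each direction, the 4 copies of highest counts on each strand and the copies past the threshold. Others are said to be named after their values were seen. Some items that this rule names are not reported here.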

Additional observations from a re-analysis of the deposited data

Results flagged for a closer look

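In 130 groups of 4 libraries that were checked for a library apart from the rest, 1 was found, and chance alone would mark about 1 in 20 groups. It was the control group of ID_B1_copy20613 on the sense strand, where control 2 had 76.5 CPM and the other controls 16.3 to 23.4 CPM. The gap to the nearest library was 0.883 of the range of the group, above Dixon's critical value for 4 values. Without control 2 the edgeR log2 fold change was -7.10 and remained past the threshold.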

How the results depend on the processing

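Alternatives were computed for levels, ratios, names and copies, and where a value moved the cause was not tested. With plain library totals the log2 difference turned positive for the B4 sense level (0.019), B1_Mur1 antisense (0.019), B4A sense (0.087) and RSINE1 sense (0.027). Scaled to all transposon counts it did so for B1 antisense (0.060), PB1 antisense (0.043), B2 sense (0.14), B4 sense (0.21), ID antisense (0.060) and RSINE sense (0.16). Without the largest copy of each name and strand the SINE ratio differed by -0.059 between groups, the SINE ratio against other transposons gave -0.019, the SINE ratio against L1 names -0.76 and that against MIR names 0.29. With identical rows counted once, which dropped 153842 member rows, the B3 ratio gave -0.0014, the ratio against other transposons -0.10, B2_Mm1t sense 0.21 and B4A sense 0.076. Most of the dropped rows were sparse, since 165114 of the 166601 SINE rows with a count held 1 to 10 counts. Equal counts in such rows need not mark a duplicate. Without rows of over 100 counts, added after the data were seen, the B1 ratio gave -0.0043, and the SINE ratio -0.093 against L1, 0.71 against IAP, 0.59 against MIR and 0.19 against other transposons. As a median over names the SINE ratio gave -0.10 between groups, -0.49 against L1 and 0.12 against MIR. With the POEM ethanol libraries alone the SINE antisense to sense ratio gave -0.0028, B2 sense 0.014, RSINE sense 0.045, B1_Mur1 antisense 0.050, B2_Mm1t sense 0.087, B2_Mm2 sense 0.067 and RSINE1 sense 0.066. Leaving out 1 library at a time gave -0.020 to 0.045 for the SINE ratio, -0.58 to 0.047 for the RSINE sense level, -0.59 to 0.021 for RSINE1 sense, 0 to 2 names and 2 to 21 copies past the threshold.

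The names past the threshold were 4 with DESeq2's Wald test and 1 with the POM ethanol libraries alone. The copies, higher and lower together, were 2 with DESeq2 size factors, 12 with its Wald test, 1 with limma-voom and 11 with a minimum count of 3. They were 12 with no filter, 22 with the POM and 1 with the POEM ethanol libraries. Same-numbered control and ethanol libraries gave r = 0.345, 0.211, -0.129 and -0.0207, and only those numbered 2 were each other's best match. These values are too few to settle whether a number marks a shared batch. With the replicate number as a block 0 names and 12 copies passed, and the calls over all features went from 1600 higher and 237 lower to 2497 and 804. Depth limits single copies: 165114 of the 166601 SINE rows with a count held 1 to 10 counts over 8 libraries.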

Other observations

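The low B4 antisense to sense ratio of ethanol 2 (0.634) lay in B4A, whose ratio was 0.579 in that library and 0.979 to 1.42 in the others, while that of the B4 name itself was 0.843. The 2 rows with equal counts in every library, B4A_copy81800 and B4A_copy81801 on the sense strand, had 83, 71, 78 and 85 counts in control libraries 1 to 4 and 260, 342, 160 and 78 counts in ethanol libraries 1 to 4. Each reached 71.2 CPM in ethanol 2, the highest of the 8 libraries, with an edgeR log2 fold change of 0.89 ± 0.47 (adjusted p = 0.219). These copies were named after their values were seen.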
